A study of Homo sapiens with 18 samples.

Results

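The transcripts of 10 genes of the NF-kB pathway were followed in H929, MM1S and OPM2, 3 human cell lines from multiple myeloma, a cancer of plasma cells. The 10 are the rows of a raw count table of 28395 genes whose symbols are NFKB1, NFKB2, RELA, RELB, REL, NFKBIA, NFKBIE, TRAF3, BIRC3 and TNFAIP3, and all 10 passed the filter on low counts. They were set by name and not by a measured value. The series holds 18 RNA-seq libraries in 9 groups of 2. Each line had empty vector cells and cells labelled as an IKZF1 knockout made with inducible CRISPR-Cas9, and OPM2 also had cells labelled as an IKZF3 knockout. Doxycycline at 1 µg/mL, which switched on the guide RNA, was given to the knockout and empty vector cells alike for 72 h. OPM2 cells without these constructs in their labels received lenalidomide at 10 µM for 72 h or served as a control without it, called untreated here, and their labels do not say whether doxycycline was added. Live cells were sorted by light scatter before RNA was purified. The labels do not say whether the libraries of a group are separate clones, guides or cultures, so p-values measure the spread between libraries, which may be technical. The study's question is whether loss of IKZF1 (Ikaros) or IKZF3 (Aiolos) does what lenalidomide does, since lenalidomide makes the cereblon ubiquitin ligase degrade both proteins.

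NF-kB transcription factors are dimers of 5 related subunits. NFKB1, RELA and REL carry the canonical arm, in which IKK kinases release dimers from inhibitors such as the products of NFKBIA and NFKBIE. NFKB2 and RELB carry the non-canonical arm, which the kinase MAP3K14 (NIK) drives. TRAF3, an adaptor, works with TRAF2 and the E3 ligases BIRC2 and BIRC3 to keep MAP3K14 low, and TNFAIP3 (A20) edits ubiquitin chains to end canonical signals. NFKB2, RELB, REL, NFKBIA, NFKBIE, BIRC3 and TNFAIP3 are themselves known NF-kB target genes. Myeloma cells often carry mutations that keep the pathway on, and TRAF3 loss is a known example.

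Promoter windows of 250 bases before to 50 bases after an annotated start were read from RefSeq (GRCh38.p14), and 8 of the 10 genes matched, in 12 windows. RELB and NFKBIE were not matched. The windows were searched on both strands for the degenerate NF-kB consensus of 10 bases and for GGGAA, the core that Ikaros proteins recognise, which can lie inside an NF-kB match. The NF-kB consensus occurred in windows of 7 of the 8 genes, all but RELA, against 11.3% of 35116 windows and 13.3% of 27305 genes overall. GGGAA also occurred in windows of 7 of the 8, all but TRAF3, against 65% of all windows and 68.6% of genes. A match is a description of letters, not a binding site. The sites below are shown because they place the NF-kB match in windows of subunit and feedback genes. The windows follow single annotated starts, and other transcripts of a gene may begin further upstream: the TNFAIP3 line and the NFKB2 line of the second start lie wholly within annotated exons of the same strand (30 of 30 bases), the REL line mostly (27 of 30) and the NFKB2 line of the third start partly (11 of 30). Each line is 30 bases in the direction of transcription, with the NF-kB match in capitals (1 run where matches overlap, and 2 separate matches for TNFAIP3), and the positions after each name are those of the line.
NFKB1, chr4:102501300-102501329, + strand: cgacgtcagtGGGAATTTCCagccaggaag
NFKB2, the second start, chr10:102394462-102394491, + strand: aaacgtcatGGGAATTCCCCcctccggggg
NFKB2, the third start, chr10:102395674-102395703, + strand: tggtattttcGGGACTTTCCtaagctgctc
REL, chr2:60881518-60881547, + strand: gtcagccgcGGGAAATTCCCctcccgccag
NFKBIA, chr14:35404811-35404840, - strand: tgactggcttGGAAATTCCCcgagcctgac
BIRC3, chr11:102317275-102317304, + strand: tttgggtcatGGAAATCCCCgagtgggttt
BIRC3, the nearer match, chr11:102317339-102317368, + strand: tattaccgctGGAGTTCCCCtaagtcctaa
TNFAIP3, chr6:137867188-137867217, + strand: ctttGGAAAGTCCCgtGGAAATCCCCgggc

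TRAF3 is shown at greater length, because it is the member that fell with lenalidomide. Its 250 bases before the start, chr14:102777199-102777448 on the + strand, held the NF-kB consensus once, from -33 to -24, in capitals here.
TRAF3: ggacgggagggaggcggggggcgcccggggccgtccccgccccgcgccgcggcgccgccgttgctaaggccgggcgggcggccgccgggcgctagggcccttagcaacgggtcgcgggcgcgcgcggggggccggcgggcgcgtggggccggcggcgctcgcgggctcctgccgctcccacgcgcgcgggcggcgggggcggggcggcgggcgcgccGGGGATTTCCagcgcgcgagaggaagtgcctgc

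Library totals ran from 11803995 to 24189568 counts. One library stands apart: the 2 OPM2 empty vector libraries differed by more than 2-fold at 1035 genes, against 31 to 254 genes within the other groups, and replicate 1 had the lowest TMM scaling factor, 0.86. Transcripts of IKZF1 and IKZF3 were no lower where they were targeted. IKZF1 transcript was at 179 and 185 CPM (counts relative to the effective library size, so that libraries of different depth compare) in MM1S empty vector libraries and 312 and 333 in those labelled IKZF1 knockout. In OPM2 it was at 94.3 and 188 with empty vector and 213 and 225 in the libraries labelled IKZF1 knockout, and in H929 at 128 and 120 against 124 and 188. Counts summed over a gene do not show a small edit, so these levels do not check the labels, and knockout below means a library so labelled. IKZF3 was at 44.0 and 50.3 CPM in OPM2 empty vector libraries and 69.3 and 66.6 in those labelled IKZF3 knockout. All 10 plasma cell markers were at 1 CPM or more in each group, while at most 1 of 4 T cell, 2 of 5 myeloid, 2 of 5 mature B cell, 2 of 3 NK cell and 1 of 4 fibroblast markers reached that level. MS4A1, which marks mature B cells, was at 0 counts throughout. In bulk RNA, fewer cells of a kind and less RNA per cell cannot be told apart.

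Across the 3 lines the feedback genes BIRC3 and TNFAIP3 spanned the widest range of levels. BIRC3 stood at 134 and 135 CPM in MM1S empty vector libraries, at 6.63 and 6.69 in H929, and at 0.37 and 0.59 in OPM2, where the counts were only 5 and 13. TNFAIP3 stood at 306 and 311 CPM in MM1S, at 24.8 and 24.3 in H929, and at 6.54 and 11.9 in OPM2. MM1S thus held the top of both ranges, and empty vector libraries of different lines did not overlap. For TNFAIP3 the order of H929 and OPM2 depends on the control. Untreated OPM2 libraries were at 30.2 and 28.3 CPM, above H929 and far below MM1S. BIRC3 was at 1.425 and 1.002 CPM in those untreated libraries.

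The subunits of the non-canonical arm followed the same order of lines. NFKB2 was at 253 and 258 CPM in MM1S, 96.8 and 106 in H929, and 54.6 and 31.8 in OPM2. RELB, its partner, was at 72.6 and 69.3 in MM1S, 53.2 and 48.8 in H929, and 28.7 and 17.9 in OPM2. For both, MM1S came first and OPM2 last, without overlap.

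**Figure D1:**
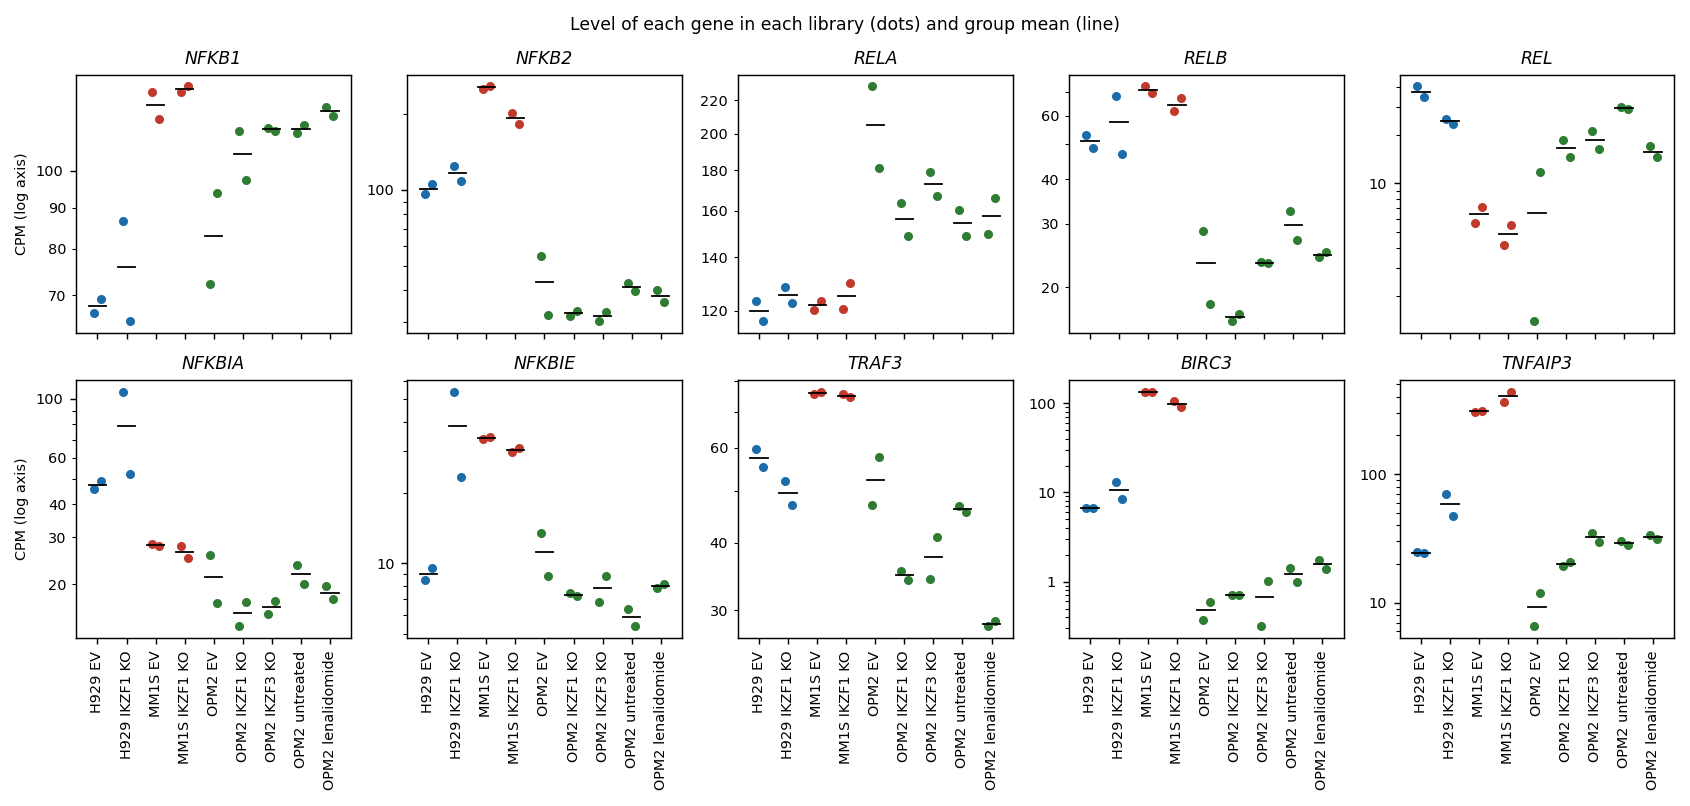
Level of each of the 10 genes in CPM on a log axis, 1 dot per library and a line at the group mean, for the 9 groups (H929 blue, MM1S red, OPM2 green; EV, empty vector; KO, labelled knockout). MM1S libraries lie above the others for NFKB2, BIRC3 and TNFAIP3, and REL in OPM2 empty vector replicate 1 lies far below the other OPM2 libraries.

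Canonical subunits gave other orders. REL was highest in H929, at 40.2 and 34.4 CPM, and low in MM1S, at 5.70 and 7.19. In OPM2 empty vector libraries REL was at 1.40 and 11.8 CPM, a spread that takes in both MM1S values. Those libraries therefore do not set the order of MM1S and OPM2 for REL. Untreated OPM2 libraries were at 29.7 and 28.9 CPM, above both MM1S values and below both H929 values. RELA, the main activating subunit, was highest in OPM2, at 229 and 181 CPM, and close together in H929 (123 and 116) and MM1S (120 and 123). NFKB1 was at 66.5 and 69.2 in H929, 125 and 116 in MM1S, and 72.2 and 93.8 in OPM2.

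Among the inhibitors, NFKBIA was highest in H929 (45.8 and 48.8 CPM), then MM1S (28.4 and 28.0) and OPM2 (25.7 and 17.0), and the last 2 did not differ in the test (adjusted p = 0.178). NFKBIE ran the other way, at 34.0 and 34.4 in MM1S, 13.5 and 8.86 in OPM2, and 8.44 and 9.58 in H929. OPM2 and H929 empty vector libraries overlapped, while untreated OPM2 libraries were at 6.39 and 5.37 CPM, below both H929 values. TRAF3 differed least between lines, at 75.6 and 76.3 CPM in MM1S, 59.6 and 55.3 in H929, and 47.0 and 57.7 in OPM2.

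Between genes, levels can be compared only per length, for which the authors' deposited table gives log2 FPKM in 1 merged column per control group. In that table RELA was at 5.54 in H929, 5.59 in MM1S and 6.19 in OPM2 empty vector cells, the highest of the 10 genes in H929 and OPM2. In MM1S the authors' deposited table put NFKB2 at 6.10 and TNFAIP3 at 5.96, both above RELA. BIRC3 was the lowest of the 10 in H929 at -0.24 and in OPM2 at -3.39, and reached 4.29 in MM1S, in the same deposited table.

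Tests between the empty vector libraries of the lines found most members different, as they did most genes. H929 and MM1S differed at 9 of the 10, all but RELA, where 63.2% of all 14571 tested genes were called at an adjusted p under 0.05. Between H929 and OPM2 the count was 7 of 10 (all but NFKB1, NFKBIE and TRAF3), with 64.6% of all genes called. MM1S and OPM2 differed at 8 of 10 (all but REL and NFKBIA), with 67.5% called. The share of members was near the background for H929 against OPM2. It was above the background for H929 against MM1S and for MM1S against OPM2. With 10 members these shares were not tested against the backgrounds, and the sizes are what set single members apart. BIRC3 was higher in MM1S than in OPM2 by a log2 difference of 8.04 ± 0.33 (SE, adjusted p = 3.86e-11), TNFAIP3 by 5.03 ± 0.25 (adjusted p = 2.7e-10) and NFKB2 by 2.57 ± 0.19 (adjusted p = 2.3e-08).

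In H929, the libraries labelled IKZF1 knockout held more NFKBIE, the IkB-epsilon inhibitor, and more TNFAIP3 than empty vector libraries. NFKBIE lies on chromosome 6, from 44258166 to 44265551 (GRCh38.p14), and TNFAIP3 on chromosome 6, from 137866349 to 137883312. NFKBIE was at 8.44 and 9.58 CPM with empty vector and at 54.0 and 23.3 in the knockout libraries a and b. TNFAIP3 was at 24.8 and 24.3 CPM against 70.6 and 47.4. Neither gene's groups overlapped, and library a was the higher for both. The groups did not overlap for TRAF3 either (-0.21 ± 0.12, adjusted p = 0.347), so with 2 libraries a group non-overlap alone says little. The log2 fold changes were 2.10 ± 0.30 for NFKBIE (adjusted p = 0.000264) and 1.26 ± 0.22 for TNFAIP3 (adjusted p = 0.00126). These were 2 of the 10 members, where 10.5% of all genes were called. Without library a the changes were 1.37 for NFKBIE (adjusted p = 0.00153) and 0.95 for TNFAIP3 (adjusted p = 0.0264), and without library b they were 2.58 and 1.52. In a fit of the 4 H929 libraries alone, NFKBIE missed the threshold (2.13 ± 0.45, adjusted p = 0.0507) and TNFAIP3 passed (1.30 ± 0.20, adjusted p = 0.0174).

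The other inhibitor gene and BIRC3 leaned on library a. NFKBIA was at 45.8 and 48.8 CPM with empty vector and at 106 and 52.0 in libraries a and b, with a log2 fold change of 0.74 ± 0.25 (adjusted p = 0.0798). BIRC3 was at 6.63 and 6.69 against 13.1 and 8.33 CPM, or 0.69 ± 0.24 (adjusted p = 0.0913). Both were past the threshold when library b was left out (NFKBIA 1.17, adjusted p = 0.00176; BIRC3 0.98, adjusted p = 0.0258) and far from it without library a (adjusted p = 0.845 and 0.649). Interferon-response genes moved with these values: the summed level of the 10 on the list was 353 and 364 CPM with empty vector, 14410 in library a and 6282 in library b. All 10 were called higher, and their part in the NF-kB results was not tested.

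REL and the remaining subunits did not pass in H929. REL was at 40.2 and 34.4 CPM with empty vector and at 25.3 and 23.5 in the knockout libraries, which do not overlap, with a log2 fold change of -0.61 ± 0.44 (adjusted p = 0.468). The test uses 1 spread per gene over all 9 groups, and REL differed 8.44-fold between the 2 OPM2 empty vector libraries. Without OPM2 empty vector replicate 1, REL passed in H929 at -0.61 ± 0.15 (adjusted p = 0.00787), as did BIRC3 at 0.68 ± 0.21 (adjusted p = 0.0309). Without replicate 2 instead, the adjusted p was 0.00764 for REL and 0.0315 for BIRC3. NFKB1, NFKB2, RELA, RELB and TRAF3 had log2 fold changes from -0.21 to 0.20 in H929.

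**Figure D2:**
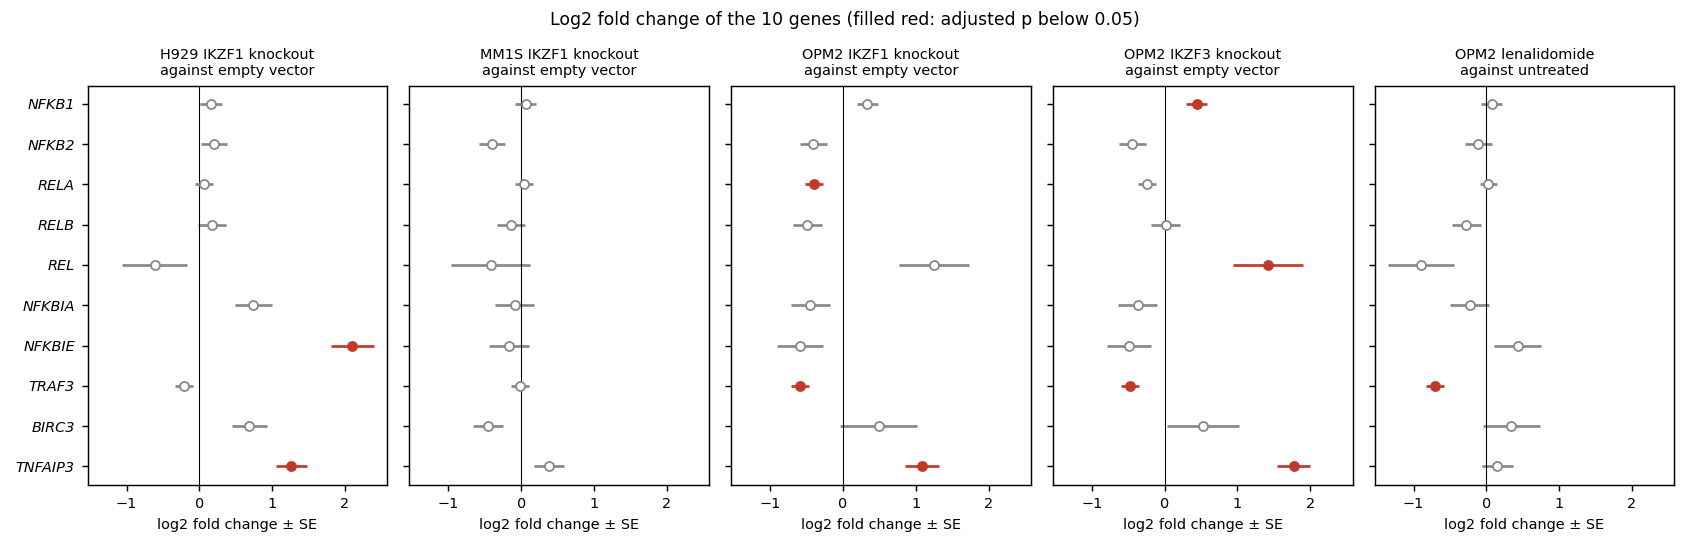
Log2 fold change ± SE of the 10 genes in the 5 main comparisons, with filled red points for an adjusted p below 0.05. NFKBIE and TNFAIP3 pass in H929, no gene passes in MM1S, and TRAF3 lies to the left in each of the 3 OPM2 panels.

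In MM1S, 0 of the 10 members passed between the libraries labelled IKZF1 knockout and empty vector in edgeR's quasi-likelihood test, where 28.2% of all genes were called. At an unadjusted p under 0.05 there were 2 members, with DESeq2 0 and with limma-voom 1. NFKB2 was at 253 and 258 CPM against 203 and 183 in the knockout libraries, a log2 fold change of -0.40 ± 0.18 (adjusted p = 0.108). BIRC3 was at 134 and 135 against 107 and 89.7 CPM, or -0.45 ± 0.20 (adjusted p = 0.112). TNFAIP3 was at 306 and 311 against 367 and 438 CPM, or 0.38 ± 0.20 (adjusted p = 0.182). For these 3 genes the groups do not overlap. Nor do they for TRAF3 (-0.02 ± 0.12, adjusted p = 0.948) or NFKBIA (-0.09 ± 0.26, adjusted p = 0.852). With 2 libraries a group, non-overlap alone therefore says little for NFKB2, BIRC3 and TNFAIP3, or in the other comparisons.

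The same 3 genes passed in MM1S once OPM2 empty vector replicate 1 was left out of the fit. NFKB2 was then at -0.39 ± 0.08 (adjusted p = 0.00115), BIRC3 at -0.44 ± 0.15 (adjusted p = 0.0269) and TNFAIP3 at 0.39 ± 0.13 (adjusted p = 0.0295). Without replicate 2 instead, the adjusted p was 0.000947 for NFKB2, 0.0234 for BIRC3 and 0.0354 for TNFAIP3. A fit of the 4 MM1S libraries alone also called NFKB2, BIRC3 and TNFAIP3 (adjusted p = 0.000319, 0.000424 and 0.00178). The interferon list summed to 164 and 166 CPM with empty vector and to 242 and 265 in the knockout libraries. Plasma cell markers were called higher at 7 of 10, their sum going from 7837 and 7957 CPM to 12850 and 13150, and NK cell markers at 1 of 3, from a sum of 2.06 and 3.10 to 14.4 and 15.9. One T cell, 1 myeloid and 1 fibroblast marker were also called higher. The part of these lists in the MM1S values was not tested. NFKBIE, which rose in H929, was at 34.0 and 34.4 CPM with empty vector and 29.9 and 31.0 in the MM1S knockout libraries, or -0.17 ± 0.28 (adjusted p = 0.708).

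In OPM2, libraries labelled IKZF1 or IKZF3 knockout held less TRAF3 and more TNFAIP3 than empty vector libraries. TRAF3 was at 47.0 and 57.7 CPM with empty vector, 35.6 and 34.1 in IKZF1 knockout libraries, and 34.3 and 41.1 in IKZF3 knockout libraries. TNFAIP3 was at 6.54 and 11.9 CPM with empty vector, 19.1 and 20.8 with IKZF1 knockout, and 34.9 and 29.4 with IKZF3 knockout. No knockout library overlapped the empty vector libraries for either gene.

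With IKZF1 knockout, TRAF3 had a log2 fold change of -0.59 ± 0.13 (adjusted p = 0.00324), TNFAIP3 of 1.08 ± 0.23 (adjusted p = 0.0032) and RELA of -0.39 ± 0.12 (adjusted p = 0.0217). RELA fell from 229 and 181 CPM to 164 and 149. These 3 of 10 members are close to the 36.3% of all genes called. With IKZF3 knockout, TRAF3 was at -0.47 ± 0.12 (adjusted p = 0.00948), TNFAIP3 at 1.77 ± 0.23 (adjusted p = 0.000176), REL at 1.42 ± 0.48 (adjusted p = 0.03) and NFKB1 at 0.44 ± 0.14 (adjusted p = 0.0281). REL went from 1.40 and 11.8 to 21.2 and 16.4 CPM, and NFKB1 from 72.2 and 93.8 to 113 and 112. The 4 of 10 are again close to the background, 36.8%.

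The empty vector libraries set much of these OPM2 results. Without replicate 1, RELA (-0.18, adjusted p = 0.195) no longer passed with IKZF1 knockout, nor NFKB1 (0.30, adjusted p = 0.1) with IKZF3 knockout. In that fit, REL with IKZF3 knockout was at 0.70 ± 0.20 (adjusted p = 0.0186), and without replicate 2 instead it was at 3.73 ± 0.31 (adjusted p = 2.5e-08). TRAF3 kept its direction without replicate 1, at -0.70 with IKZF1 knockout and -0.57 with IKZF3 knockout, and so did TNFAIP3, at 0.78 and 1.46. Over the 18 fits that each left out 1 library, TRAF3 with IKZF1 knockout ranged from -0.70 to -0.43. With IKZF3 knockout TRAF3 ranged from -0.61 to -0.31. In fits of the compared libraries alone no member passed, with an adjusted p of 0.263 and 0.33 for TRAF3 and 0.176 and 0.0995 for TNFAIP3. Single knockout libraries mattered too: without IKZF3 knockout library a, TRAF3 was at -0.35 (adjusted p = 0.118), and without IKZF1 knockout library a or b the adjusted p of RELA was 0.0508 or 0.137. The interferon list summed to 39.8 and 61.2 CPM with empty vector, to 109 to 129 with IKZF1 knockout and to 124 to 135 with IKZF3 knockout, and its part was not tested.

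Against the untreated OPM2 libraries in place of the empty vector, all 7 of these calls ended. TNFAIP3 was at 30.2 and 28.3 CPM in untreated libraries, so its log2 fold change became -0.55 ± 0.22 (adjusted p = 0.151) with IKZF1 knockout, the opposite direction, and 0.13 ± 0.21 (adjusted p = 0.795) with IKZF3 knockout. REL, at 29.7 and 28.9 CPM untreated, changed sign with IKZF3 knockout, to -0.65 (adjusted p = 0.441). TRAF3 kept its direction below the threshold, at -0.41 ± 0.13 (adjusted p = 0.0634) and -0.29 ± 0.12 (adjusted p = 0.179). RELB, not among those calls, was at 32.5 and 27.1 CPM untreated and 16.1 and 16.8 with IKZF1 knockout and was the single member called against untreated cells, at -0.86 ± 0.20 (adjusted p = 0.0155). The untreated cells had no empty vector or doxycycline in their labels, so vector, doxycycline and culture cannot be told apart as the source of the difference between the controls.

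**Figure D3:**
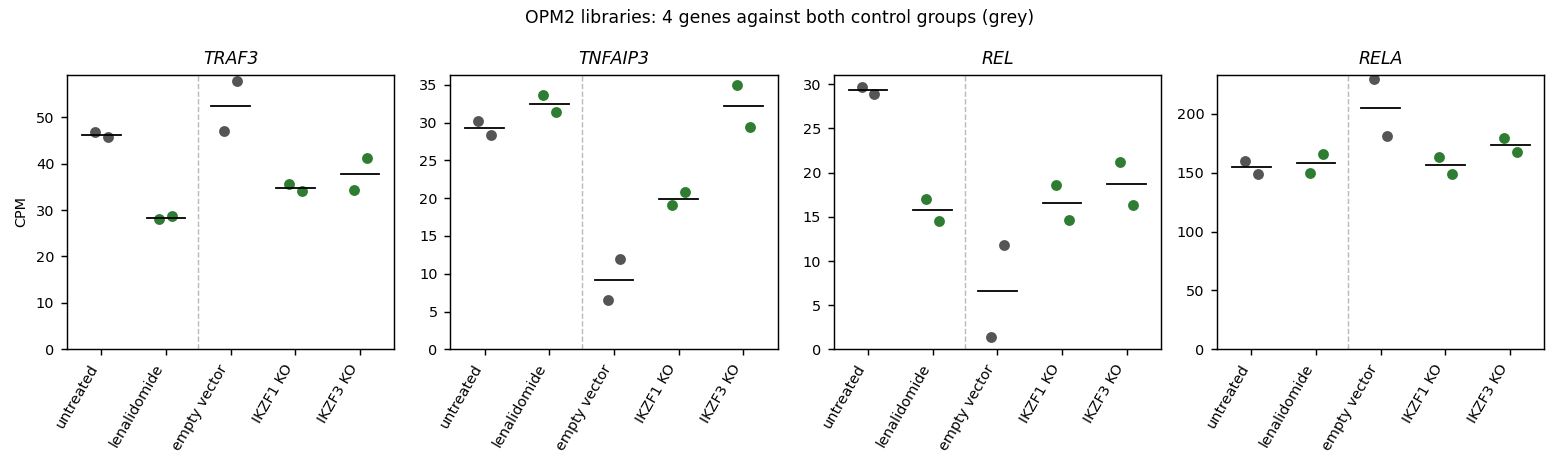
Levels in CPM of TRAF3, TNFAIP3, REL and RELA in the 10 OPM2 libraries (dots) with group means (lines), both control groups in grey. TRAF3 is lower in each of the 6 treated or knockout libraries than in each of the 4 controls, while TNFAIP3 and REL differ more between the 2 control groups than between most treated groups.

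The control groups themselves differed, with 6 of the 10 members called between OPM2 empty vector and untreated libraries and 35.3% of all genes. In the empty vector libraries REL was lower by a log2 difference of -2.07 ± 0.48 (adjusted p = 0.00505), TNFAIP3 by -1.64 ± 0.23 (adjusted p = 0.000752), BIRC3 by -1.30 ± 0.46 (adjusted p = 0.0408) and NFKB1 by -0.44 ± 0.14 (adjusted p = 0.029). RELA was higher by 0.41 ± 0.12 (adjusted p = 0.0185) and NFKBIE by 0.90 ± 0.31 (adjusted p = 0.0378). REL was at -1.35 without empty vector replicate 1 and at -4.39 without replicate 2, and passed in each of the 18 fits that left out 1 library. BIRC3 lost its call in 12 of those 18 fits and rests on 5 and 13 counts against 31 and 14. NFKBIE lost its call in 7 of 18, with 0.54 (adjusted p = 0.403) without empty vector replicate 1, and NFKB1 and RELA in 3 each. TRAF3 did not pass (0.18 ± 0.12, adjusted p = 0.278).

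TRAF3, on chromosome 14 from 102777449 to 102911500 (GRCh38.p14), fell with lenalidomide in OPM2, from 46.8 and 45.7 CPM in untreated libraries to 28.0 and 28.6. The log2 fold change was -0.71 ± 0.13 (adjusted p = 0.00222). TRAF3 was the only 1 of the 10 members called, with 10.3% of all genes. Over the 26 alternatives tried, TRAF3 stayed between -0.72 and -0.69, with a highest adjusted p of 0.0378. Its 6 values in lenalidomide and knockout libraries, 28.0 to 41.1 CPM, all lay below its 4 values in OPM2 controls, 45.7 to 57.7. The interferon list summed to 71.4 and 74.8 CPM untreated and to 202 and 196 with lenalidomide, and its part was not tested.

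REL had the largest log2 fold change of the 10 with lenalidomide but did not pass. It was at 29.7 and 28.9 CPM untreated and at 17.0 and 14.5 with the drug, with no overlap, a log2 fold change of -0.89 ± 0.46 (adjusted p = 0.272). Without OPM2 empty vector replicate 1, the fit gave REL -0.89 ± 0.16 (adjusted p = 0.000597), and without replicate 2 instead the adjusted p was 0.000564. TNFAIP3 was at 30.2 and 28.3 CPM untreated and 33.6 and 31.4 with lenalidomide, or 0.15 ± 0.22 (adjusted p = 0.75). NFKB1, NFKB2, RELA, RELB, NFKBIA, NFKBIE and BIRC3 had log2 fold changes from -0.28 to 0.43 with the drug.

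The difference between the effects was tested directly. The IKZF1 knockout effect lay higher in H929 than in MM1S for 2 of 10 members, with 15.9% of all genes called. The log2 difference was 2.27 ± 0.40 for NFKBIE (adjusted p = 0.00144) and 1.14 ± 0.32 for BIRC3 (adjusted p = 0.0232). BIRC3 passed in neither line by itself, at 0.69 in H929 and -0.45 in MM1S. Between H929 and OPM2 the IKZF1 knockout effect also differed for 2 members, against 12.7% of genes. These were NFKBIE (2.69 ± 0.43, adjusted p = 0.00175) and NFKBIA (1.19 ± 0.37, adjusted p = 0.0473). NFKBIA passed in neither line by itself, at 0.74 in H929 and -0.45 in OPM2. The NFKBIA difference was lost in 16 of 18 fits that each left out 1 library, and it was 0.59 without H929 knockout library a (adjusted p = 0.201). Between MM1S and OPM2 only TRAF3 was called (0.57 ± 0.18, adjusted p = 0.0343), with 20.7% of genes. That call was lost in 12 of 18 such fits, with values from 0.41 to 0.69 and a highest adjusted p of 0.142. BIRC3 between H929 and MM1S was lost in 6 of 18, and NFKBIE in none of the 18 for either pair of lines. TNFAIP3, called in H929 and in OPM2, did not pass in any of the 3 tests of difference, and its smallest adjusted p was 0.0564, for H929 against MM1S.

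Within OPM2, the IKZF1 and IKZF3 knockout libraries did not differ at any member in edgeR, with 2.59% of all genes called. At an unadjusted p under 0.05 there were 2 members, with DESeq2 1 and with limma-voom 0. TNFAIP3 came closest, lower with IKZF1 knockout by -0.69 ± 0.22 (adjusted p = 0.136). Lenalidomide and IKZF3 knockout effects differed for REL (-2.31 ± 0.66, adjusted p = 0.0491) and TNFAIP3 (-1.62 ± 0.31, adjusted p = 0.0156), with 6.6% of genes called. REL lost this call in 16 of 18 fits without 1 library, and it was at -1.59 without OPM2 empty vector replicate 1 and -4.63 without replicate 2. TNFAIP3 lost it in 4 of 18. Lenalidomide and IKZF1 knockout effects differed for 0 members in edgeR, with 0.281% of genes called, 4 members at an unadjusted p under 0.05, 1 with DESeq2 and 0 with limma-voom. The effects subtract different control groups, so the difference between those controls for REL and TNFAIP3 enters these values. The treated levels were close: TNFAIP3 averaged 32.5 CPM with lenalidomide and 32.2 with IKZF3 knockout, and REL 15.75 and 18.76.

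Some members varied together once the line means were removed. Over the 18 libraries, log2 CPM centred within each line gave Pearson r = 0.88 for NFKB1 with TNFAIP3, 0.74 for NFKB2 with NFKBIA, 0.73 for NFKB1 with REL, 0.72 for RELB with NFKBIA and for NFKBIA with NFKBIE, and -0.81 for RELA with REL. The libraries share groups, and OPM2 has 10 of the 18, so these values are a description. The 10 include the outlying empty vector replicate 1, where REL was at 1.40 CPM. How far that library sets the r values was not tested. Of all genes, those whose centred pattern was most like REL were KLHL15 (r = 0.98) and PTPRG (0.98). For TNFAIP3 they were TMEM47 (0.95) and XRN1 (0.95), and for NFKBIE they were LY6E (0.94), an interferon-induced gene, and DYNLT1 (0.94). TRAF3 was most like RCC2 (0.91) and SLC25A12 (0.90), NFKB1 most like KIAA1551 (0.92) and TCF4 (0.92), and RELA most like TMEM186 (0.92) and ISOC2 (0.91).

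The rest of the pathway was read from 112 other genes in lists of inhibitors, kinases, adaptors, receptors, ligands and targets, of which 89 passed the low-count filter. The shares of all genes given as background are those of the main fit. Counts from fits without a library or against untreated cells have no such share beside them. They are not read as results about the pathway. In H929 with IKZF1 knockout, 21 were called higher, against 5.92% of all genes, and 3 lower, against 4.6%. Known NF-kB target genes gave 9 of 19 higher and none lower. Among them the chemokine CCL4 was at 14.99 CPM with empty vector and 246 with knockout (log2 fold change 4.04 ± 0.35, adjusted p = 4.22e-06), and IRF1, an interferon-responsive transcription factor, at 76.3 and 240 (1.65 ± 0.21, adjusted p = 0.000123). The adaptor MYD88 rose by 1.98 ± 0.19 (adjusted p = 7.34e-06). The kinase IKBKE rose by 1.32 ± 0.18 (adjusted p = 0.000164). TNFSF13B (BAFF), a survival ligand of plasma cells, was at a mean of 0.08 CPM with empty vector and 9.53 with knockout (adjusted p = 2.44e-05). The 3 called lower were TRAF5, TLR4 and TLR1, the last at means of only 0.52 CPM with empty vector and 0.08 with knockout. Interferon-response genes rose in the same knockout libraries, more in library a, and their part in these values was not tested. Without library a, 11 of 89 were higher and 1 lower, and target genes gave 4 of 19 higher. Without library b there were 23 higher and 2 lower of 90.

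MM1S had 19 of the 89 called higher (background 15.6%) and 8 lower (12.6%), and receptors gave 6 of 14 higher and 1 lower. Target genes gave 6 of 19 higher and 4 lower. ICAM1, an adhesion molecule and NF-kB target, rose from 11.7 to 67.8 CPM (2.53 ± 0.20, adjusted p = 6.59e-07), and the chemokine CCL3 fell from 1566 to 538 CPM (-1.54 ± 0.30, adjusted p = 0.00152). CD40, a receptor that feeds the non-canonical arm, rose from 4.96 to 12.1 CPM (1.29 ± 0.24, adjusted p = 0.00232). Without OPM2 empty vector replicate 1 the counts were 28 higher and 14 lower of 90.

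**Figure D4:**
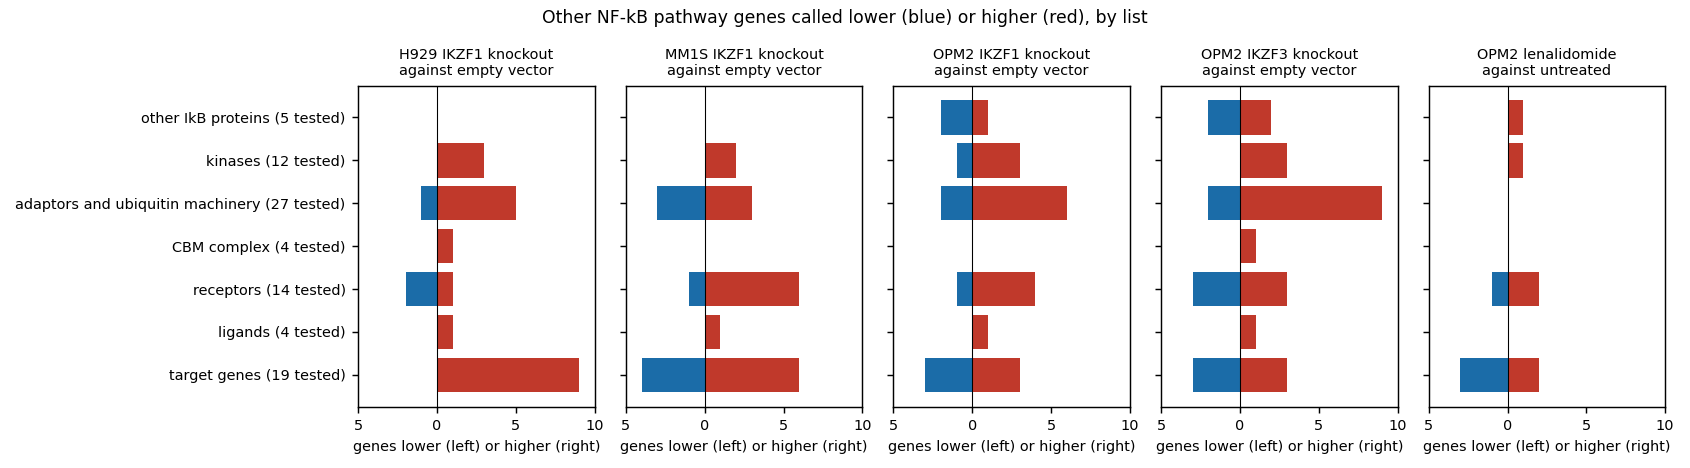
Number of other NF-kB pathway genes called higher (red, to the right) or lower (blue, to the left) in the 5 main comparisons, by list, with the number of tested genes of each list in parentheses. Target genes in H929 were called higher 9 times of 19 and lower in no case, and lenalidomide gave the fewest calls.

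In OPM2, IKZF1 knockout gave 18 of 89 higher (background 16.2%) and 11 lower (background 20%), and IKZF3 knockout 22 higher (16.2%) and 10 lower (20.6%). Set against untreated cells, these became 5 higher and 6 lower, and 5 higher and 7 lower. Without empty vector replicate 1 they were 14 higher and 7 lower, and 22 higher and 2 lower, of 90. TLR4, a receptor for bacterial products, rose from a mean of 2.95 CPM to 17.1 and 19.3 with the knockouts (2.51 ± 0.37, adjusted p = 0.00048, and 2.67 ± 0.37, adjusted p = 0.00026). It also passed against untreated cells (1.51, adjusted p = 0.0124, and 1.67, adjusted p = 0.00663). In H929, by contrast, TLR4 was called lower with IKZF1 knockout, from 7.64 to 1.63 CPM (-2.22 ± 0.44, adjusted p = 0.00418). Without H929 knockout library a TLR4 was at -1.92 and missed the threshold, and without library b it was at -2.60. CCL3 fell with both OPM2 knockouts (-1.34 ± 0.31 each, adjusted p = 0.00544 and 0.00497) and passed against untreated cells too. Without empty vector replicate 1 CCL3 did not pass (adjusted p = 0.147 and 0.136). BCL3, an atypical IkB protein, rose with IKZF3 knockout (0.77 ± 0.18, adjusted p = 0.00464) and by 1.10 against untreated cells (adjusted p = 0.00142).

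Lenalidomide gave 6 of 89 higher (background 5.76%) and 5 lower (4.58%), or 15 and 8 of 90 without OPM2 empty vector replicate 1. NFKBIZ, an atypical IkB protein of the nucleus, rose from 3.33 to 10.7 CPM (1.71 ± 0.36, adjusted p = 0.00648). TLR4 rose from 5.96 to 23.5 CPM (1.97 ± 0.34, adjusted p = 0.00163). LTBR, the lymphotoxin receptor that drives the non-canonical arm, rose from 0.61 to 3.51 CPM (2.46 ± 0.46, adjusted p = 0.00416), and it rose too with IKZF1 knockout, from 0.58 to 7.24 CPM (3.77 ± 0.45, adjusted p = 0.000213). CCL3 fell from 56.8 to 16.8 CPM (-1.76 ± 0.32, adjusted p = 0.00262).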

How the data were processed

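The authors deposited raw counts per Entrez gene, with no normalization, and a table of log2 FPKM in which each control group is 1 merged column. Subread, featureCounts and limma, with the GRCh38 build, are named per the submitters' processing notes, and versions and settings are not given in the sources used here. The kit is named without a strand setting, so antisense reads cannot be told apart. Entrez entries without a symbol (385 of 28395) took 0.0122% to 0.0276% of a library and stayed in the fit. Count-table columns of knockout libraries carry other numbers than the titles, so each was given a group but no replicate number (libraries a and b).

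The deposited counts went into edgeR 4.0.16 (R 4.3.3): filterByExpr by group (14571 genes), TMM, and a robust quasi-likelihood fit of all 18 libraries with 9 residual degrees of freedom. Calls are at 0.05 after Benjamini-Hochberg adjustment over all genes tested, and every adjusted p in the text is from that test unless another is named. SE is the log2 fold change divided by the square root of F. The 10 members, the lists and the tests were chosen with earlier results of these data known. All members were named. Of each pathway list, up to 4 called genes with the smallest p per main comparison could be named, and for each member called in a main comparison the 2 genes most like it, by Pearson r among genes averaging 1 or more in log2 CPM. The script was tested on simulated data. Alternatives were DESeq2 size factors, upper quartile scaling, other filters, DESeq2 1.42.0, limma-voom 3.58.1, fits of the compared libraries alone, leaving out each library, the untreated control and a replicate block.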

Additional observations from a re-analysis of the deposited data

Results flagged for a closer look

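In 7 cases the response of a member differed between lines or treatments in the test of the difference itself. NFKBIE responded to the labelled IKZF1 knockout more in H929 than in MM1S (2.27, adjusted p = 0.00144) and than in OPM2 (2.69, adjusted p = 0.00175). The BIRC3 effect was 0.69 in H929 and -0.45 in MM1S, neither passing by itself (difference 1.14, adjusted p = 0.0232). The NFKBIA effect was 0.74 in H929 and -0.45 in OPM2, again neither passing (difference 1.19, adjusted p = 0.0473). The TRAF3 effect was less negative in MM1S than in OPM2 (0.57, adjusted p = 0.0343). The lenalidomide effect in OPM2 lay below the IKZF3 knockout effect for REL (-2.31, adjusted p = 0.0491) and for TNFAIP3 (-1.62, adjusted p = 0.0156). These 2 effects subtract different controls. TNFAIP3 averaged 32.5 CPM with lenalidomide and 32.2 with IKZF3 knockout, but 29.3 in untreated and 9.23 in empty vector libraries. For REL the means were 15.75 and 18.76 CPM treated, and 29.3 and 6.59 in those controls. All adjusted p-values are from edgeR's quasi-likelihood test. Of 25 alternatives each, NFKBIE passed in 25 against MM1S and in 24 against OPM2, TNFAIP3 in 20, BIRC3 in 19, TRAF3 in 10, REL in 8 and NFKBIA in 5, so the calls of TRAF3, REL and NFKBIA did not hold in most of them.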

How the results depend on the processing

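Of 1189 values of 47 called member results under the alternatives, 1048 kept their direction and their side of the threshold, 137 kept only the direction and 4 reversed. Many of these fits left out a library outside the compared groups. Such a fit changes the shared spread and scaling but not the compared libraries, so it says little about direction. All 4 reversals came with untreated libraries as control: RELA 0.0156 and TNFAIP3 -0.5531 with IKZF1 knockout, NFKB1 -0.0021 and REL -0.6486 with IKZF3 knockout. There the members called were 1 with IKZF1 knockout (3 in the report) and 0 with IKZF3 knockout (4 in the report). With no low-count filter the members called were 5 in H929, 1 in MM1S, 5 in OPM2 with IKZF1 knockout, 2 with lenalidomide, 1 between the knockouts, and 4, 2 and 3 for the differences of H929 from MM1S, MM1S from OPM2 and lenalidomide from IKZF1 knockout. The stricter filter gave 5 with IKZF1 knockout in OPM2. DESeq2 gave 4 in H929, 1 between the knockouts and 1 for lenalidomide from IKZF1 knockout, and limma-voom 1 in MM1S. Between the OPM2 controls limma-voom gave 4, where edgeR gave 6. DESeq2 and limma-voom gave 4 each with IKZF1 knockout in OPM2 and 3 each for H929 from MM1S. For filters, scaling and libraries fitted alone, counts that shifted little are not listed. Fitted alone, the compared libraries gave 3 in MM1S, 0 for both OPM2 knockouts, 4 with lenalidomide, 0 between the OPM2 controls, 1 between the knockouts, 4 for H929 from MM1S, and 0 for H929 from OPM2, MM1S from OPM2 and lenalidomide from IKZF3 knockout. Size factors and upper quartile scaling each gave 1 for H929 from OPM2, and upper quartile 0 for MM1S from OPM2. No share of all genes stands beside these counts, so they are not read as results about the members. The cause of these shifts was not tested.

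Leaving out 1 library at a time, the members called ranged from 2 to 4 in H929, 0 to 3 in MM1S, 2 to 7 and 1 to 6 with IKZF1 and IKZF3 knockout in OPM2, 1 to 2 with lenalidomide and 2 to 6 between the OPM2 controls. Between lines they ranged from 6 to 9, 7 to 8 and 8 to 9, and for the differences from 1 to 4 (H929 from MM1S), 1 to 6 (H929 from OPM2), 0 to 6 (MM1S from OPM2), 0 to 2 (between the knockouts), 0 to 5 and 0 to 6 (lenalidomide from IKZF1 and from IKZF3 knockout). A left-out library leaves a group with 1, assumed to vary like the others. These ranges too have no share of all genes beside them.

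With the replicate number as a block, 6 members were called between the OPM2 controls and 1 with lenalidomide (TRAF3 -0.71, adjusted p = 0.00504), as without it. Deviations of same-numbered libraries correlated at 0.26 and -0.02, so the numbers are not taken to pair. No paired analysis was possible for knockout against empty vector because the knockout columns do not carry the titles' numbers. BIRC3 in OPM2 rests on 5 to 31 counts.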
